A study of Homo sapiens with 6 samples.

Results

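The contractile genes described here are ACTA2, ACTG2, TAGLN, CNN1, MYL9, MYH11, TPM1, TPM2, CALD1 and LMOD1, which encode smooth muscle actin and the proteins that work with it. They were chosen by symbol, as 10 of the 23754 features of the count table. All 10 passed the filter on low counts, which left 13991 features for testing.

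The study asked what ZNF469, a zinc finger protein, contributes to gene expression in human lung fibroblasts. The cells were IMR-90, an established line of fetal lung fibroblasts, transduced with a lentiviral vector that expresses a short hairpin RNA against ZNF469 when doxycycline is added, and kept under puromycin. Cells of the DOX+ group were kept in doxycycline at 2 µg/mL over 4 days, the DOX- group grew in the same medium without it, and poly(A) RNA of each was sequenced in 3 libraries. A single hairpin, sh-2, was used, the series' design text calls the replicates technical, and the p-values therefore measure only the spread between these libraries. The sample labels give the DOX- genotype as Wild-type, whereas the methods describe the same transduced line without induction. No library with doxycycline and another hairpin was analysed here, so an effect of the drug or of the hairpin itself cannot be told apart from that of ZNF469. Outside the sequencing, the paper used a further hairpin in quantitative PCR (RT-qPCR). It also reports that transduction or doxycycline alone did not alter collagen production.

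Myofibroblasts are fibroblasts that have built a contractile apparatus like that of smooth muscle, and they pull on and stiffen scar tissue. In that apparatus, thin filaments of actin, stabilised by tropomyosin and dressed with calponin, transgelin and caldesmon, slide along filaments of myosin II, whose activity is set by phosphorylation of its regulatory light chain. Many of the genes are controlled by serum response factor (SRF), which binds the CArG box in their promoters together with myocardin or the actin-sensing myocardin-related factors.

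The libraries held 34057675 to 36120260 counts. ZNF469, the targeted gene, was at 118, 112 and 126 CPM (read counts scaled to library size by TMM) in the DOX- libraries and at 80.4, 80.4 and 79.6 in the DOX+ libraries. Its level fell by 0.57 on the log2 scale (SE 0.048, edgeR quasi-likelihood test, Benjamini-Hochberg adjusted p = 3.31e-05), to 67.5% of the DOX- level. DOX+ replicate 2 stood apart from the other libraries: its score on the first principal component, which held 23.9% of the variance, was 32.8, against -12.6 to 0.524 in the rest. Where its removal changed a call on a contractile gene, both values are given.

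The contractile genes were expressed at very different levels, which can be compared between genes only per length, as the FPKM (fragments per kilobase of transcript, scaled to sequencing depth) deposited by the authors. TAGLN, encoding the actin-bundling protein transgelin, had the highest level, a mean of 2360 FPKM over the 6 libraries, and ranked 10 among all features. TPM2, encoding beta-tropomyosin, followed at 1622 FPKM and rank 19. ACTA2, encoding alpha smooth muscle actin, had 925 FPKM, and TPM1, encoding alpha-tropomyosin, had 886 FPKM. The ranges of ACTA2 and TPM1 over the libraries overlapped, so their order is not settled. MYL9, the smooth muscle regulatory light chain of myosin, stood at 444 FPKM. CALD1, encoding caldesmon, was at 371 FPKM and ACTG2, encoding gamma smooth muscle actin, at 336 FPKM. Their ranges overlapped across groups, but CALD1 was above ACTG2 within each of the 6 libraries. CNN1, encoding calponin, had 132 FPKM and LMOD1, encoding leiomodin, which nucleates actin filaments, had 36.7 FPKM. MYH11, the smooth muscle myosin heavy chain, lay far below the rest at 0.405 FPKM, with 0.241 to 0.496 across libraries and rank 12542. In the uninduced cells alone, TAGLN was at 2318 to 2349 FPKM and ACTA2 at 858 to 886 FPKM. The genes listed as markers of differentiated smooth muscle were MYH11, DES, SMTN, MYOCD, ACTG2, LMOD1 and CNN1. They did not go together in these cells. MYH11 did not exceed 0.395 FPKM and DES did not exceed 0.224 FPKM. In contrast, ACTG2 was at 321 to 328 FPKM and CNN1 at 126 to 128 FPKM. SMTN was at 45.1 to 50.4, LMOD1 at 35.5 to 36.5 and MYOCD at 7.57 to 8.35 FPKM.

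**Figure D1:**
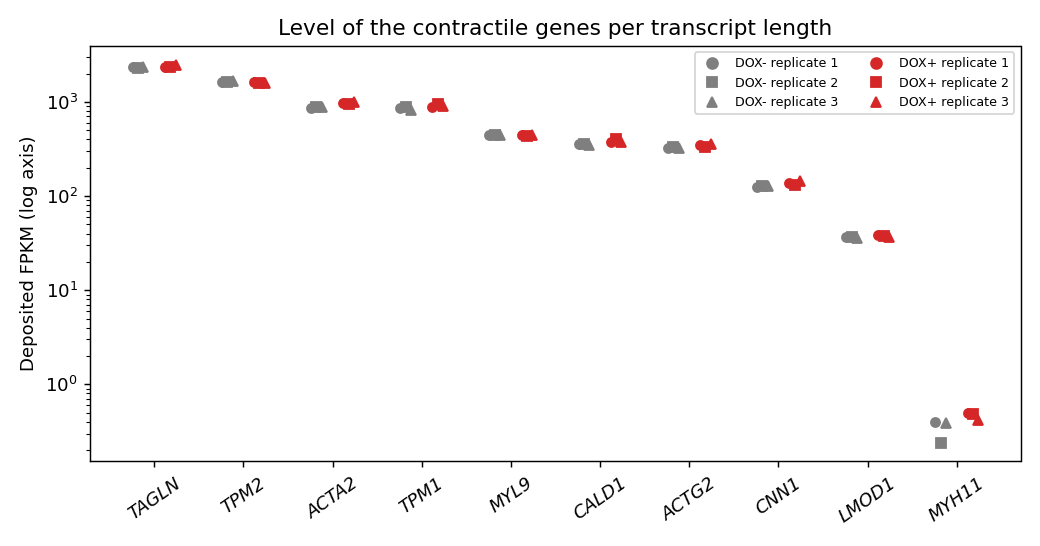
Deposited FPKM of the 10 contractile genes in each library, on a log axis, with the genes in order of level and the 3 DOX- and 3 DOX+ libraries as points. TAGLN lies highest, at a mean of 2360 FPKM, and MYH11 lowest, at 0.405 FPKM.

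All of the contractile genes together took 1.10%, 1.11% and 1.11% of the counts in the DOX- libraries and 1.14%, 1.13% and 1.15% in the DOX+ libraries. Every DOX+ library was above every DOX- library in this share of raw counts, by little. In CPM scaled by TMM the groups overlapped, with sums of 11050 to 11210 in DOX- and 11150 to 11470 in DOX+. In bulk RNA, more cells of a contractile type and more RNA per cell cannot be told apart.

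In the edgeR quasi-likelihood test, 0 of the 10 contractile genes passed a Benjamini-Hochberg adjusted p of 0.05, where 1.12% of all features tested did (0.4% higher and 0.715% lower in DOX+). At an unadjusted p under 0.05 there were 4, namely ACTA2, CALD1 and TPM1 with higher and TPM2 with lower levels, beside 15.0% of all features (7.31% higher and 7.69% lower). The contractile genes other than MYH11 are abundant, and abundant features passed more often. Among the 1495 features with a mean log2 CPM over 7, 4.35% passed the adjusted threshold and 30.0% the unadjusted one. With the study's added requirement of an absolute log2 fold change over 1, no contractile gene and 0.0429% of all features were called. The paper reports far more genes at these thresholds, so its calls were not reproduced, and the sources used here do not name its test. DESeq2 called 2, ACTA2 and CALD1, both higher, where it called 3.52% of 6894 features higher and 3.54% lower, and limma-voom called 0, where it called 0.4% of features higher and 0.7% lower. The fitted log2 fold change was above 0 for 8 genes and below 0 for MYL9 and TPM2, and the median was 0.05, against -0.0019 over all features tested. For the 9 genes other than MYH11, the 95% intervals lay between 92.75% and 114.0% of the DOX- level. COL1A1, encoding a chain of type I collagen, fell to 61.96% of its DOX- level (edgeR adjusted p = 1.66e-09), below the lowest of those bounds.

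**Figure D2:**
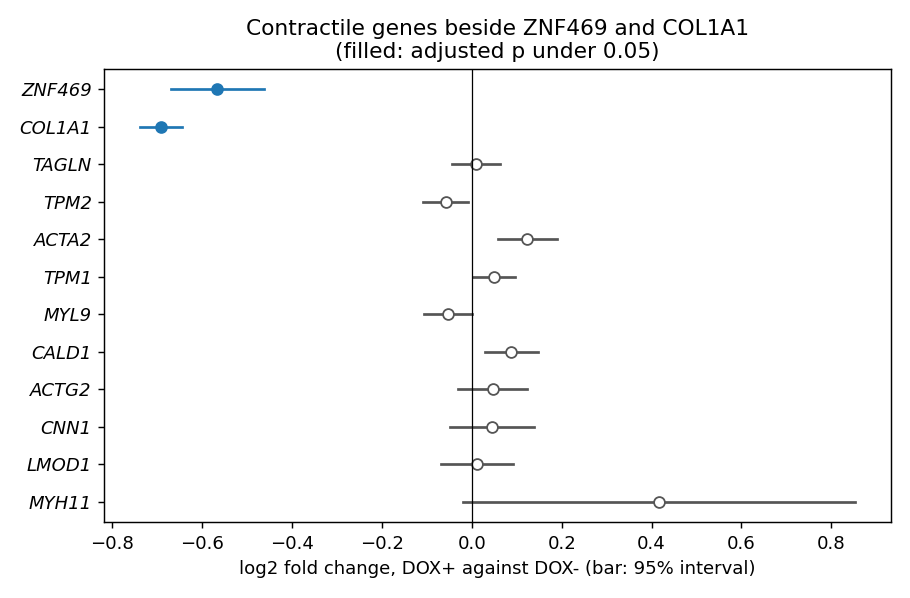
Log2 fold change, DOX+ against DOX-, of each contractile gene and of ZNF469 and COL1A1, with bars for the 95% interval from the edgeR quasi-likelihood fit and filled points where the adjusted p is under 0.05. ZNF469 and COL1A1 lie well below 0, and no contractile gene is filled. The interval of MYH11 is the widest, from -0.019 to 0.85.

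Groups that do not overlap were counted too. In 6 genes the 3 DOX+ libraries lay wholly on one side of the 3 DOX- libraries, 4 above (ACTA2, MYH11, TPM1 and CALD1) and 2 below (MYL9 and TPM2). Among all features 20.3% were separated in this way (9.73% higher and 10.6% lower), and among the 1495 features with a mean log2 CPM over 7, 35.6%.

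ACTA2 (chr10, 88935074 to 88991339, minus strand, GRCh38) codes for the actin isoform whose protein is the usual stain for myofibroblasts. Its levels were 1262, 1304 and 1320 CPM in the DOX- libraries and 1429, 1350 and 1455 CPM in the DOX+ libraries. The 3 DOX+ libraries were all higher, and replicate 2 was the lowest of them and the nearest to the DOX- range. The mean went from 1296 ± 29.9 to 1411 ± 54.8 CPM (SD, n = 3 libraries each). The log2 fold change of 0.12 (SE 0.030, 95% interval 0.058 to 0.19) did not pass the threshold (edgeR adjusted p = 0.0774). Without DOX+ replicate 2 it was 0.16 and passed (adjusted p = 0.0102), where 0.267% of features were called higher and 0.548% lower. The direction was the same under all 19 alternatives, 6 of which took it past the threshold. By contrast, the paper reports lower ACTA2 by RT-qPCR with either hairpin, on independent cell batches, and weaker contraction of collagen gels. This difference was not tested. On the opposite strand FAS, a death receptor gene, shares 387 of the exonic bases of ACTA2 in GENCODE 44, and STAMBPL1, a deubiquitinase gene, overlaps it without a shared exonic base. Their log2 fold changes were 0.18 (edgeR adjusted p = 0.18) and -0.10 (0.405), at no more than 1806 and 2101 counts in any library against at least 42748 for ACTA2. The antisense gene ACTA2-AS1, which shares 1638 bases, had no entry under its own identifier among the features counted. Nor had ENSG00000286116, a noncoding gene on the same strand that shares 401 bases and that counting by strand would not separate.

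**Figure D3:**
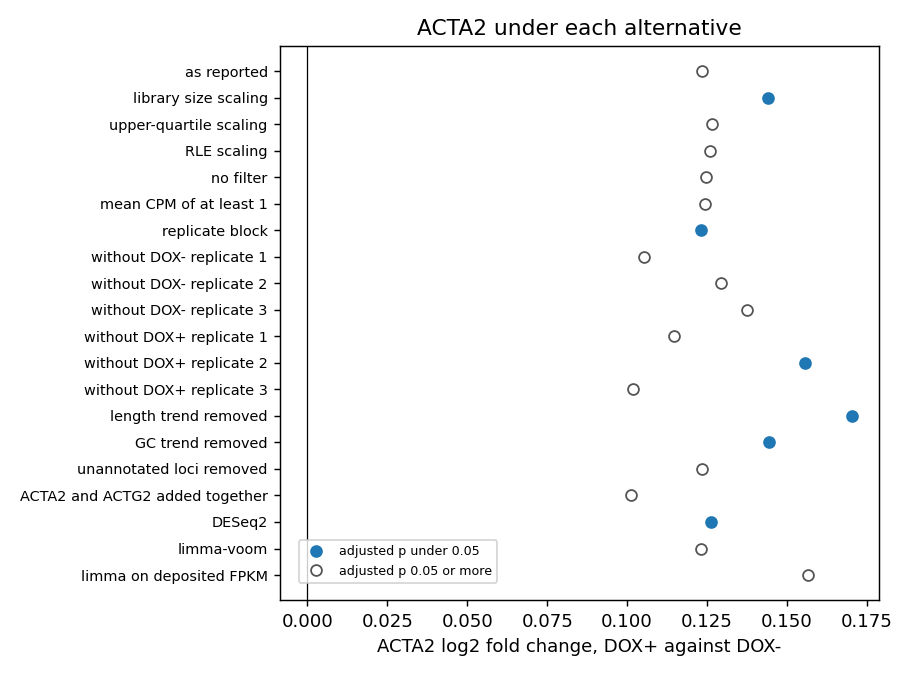
Log2 fold change of ACTA2, DOX+ against DOX-, as reported and under each of the 19 alternatives, with filled points where the adjusted p is under 0.05. All values lie above 0, between 0.10 and 0.17, and 6 alternatives are filled.

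ACTG2 (chr2, 73892314 to 73919865, plus strand) codes for the smooth muscle actin typical of visceral muscle. It stood at 537, 551 and 554 CPM without doxycycline and at 572, 537 and 587 CPM with it. The groups overlapped, since DOX+ replicate 2 was level with the lowest DOX- library. The log2 fold change was 0.05 (95% interval -0.030 to 0.12, edgeR adjusted p = 0.571). It was 0.02 without DOX+ replicate 3 and 0.08 without DOX+ replicate 2.

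The smooth muscle actins are similar in sequence, so reads could in principle be split between them. The coding sequences of ACTA2 and ACTG2 were compared base by base from the 3′ end, without alignment, and were identical at 84.4% of 1128 bases. The longest run that their canonical transcripts share was 29 bases, shorter than a read of 150 bases. How the authors treated reads that align to several places is not given in the sources used here. The ratio of ACTA2 to ACTG2 counts within a library was 2.35, 2.37 and 2.38 in DOX- and 2.50, 2.51 and 2.48 in DOX+. Every DOX+ ratio was above every DOX- ratio, a shift of 1.055-fold. The exact two-sided permutation test gave p = 0.1, the smallest that 3 against 3 libraries allow, and 0.1 after adjustment over the 4 ratios computed.

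The promoter sequences of the smooth muscle actins are shown because they hold the CArG-like sites that SRF is known to use. RefSeq windows (GRCh38.p14) were found for 7 of the 10 genes, 12 windows in all, and none for TAGLN, MYL9 and MYH11. Below are the 250 bases that precede 1 of the starts of ACTA2 (chr10:88952774-88953023, minus strand) and of ACTG2 (chr2:73892758-73893007, plus strand), 5′ to 3′, with the matches in capitals.
ACTA2: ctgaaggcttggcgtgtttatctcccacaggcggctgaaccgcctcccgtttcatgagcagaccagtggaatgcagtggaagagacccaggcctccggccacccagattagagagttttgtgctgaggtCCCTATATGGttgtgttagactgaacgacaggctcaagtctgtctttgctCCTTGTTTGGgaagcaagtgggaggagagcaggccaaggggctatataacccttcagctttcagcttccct
ACTG2: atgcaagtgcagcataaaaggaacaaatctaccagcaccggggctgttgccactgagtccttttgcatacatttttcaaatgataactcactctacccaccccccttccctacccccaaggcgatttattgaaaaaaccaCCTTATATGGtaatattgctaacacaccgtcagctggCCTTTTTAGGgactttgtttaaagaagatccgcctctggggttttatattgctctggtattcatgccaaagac
The capitals mark the CArG box, searched as its full form and with 1 base of its A/T core changed. The motif reads the same on both strands, and no match overlapped another. ACTG2 holds a pair of full matches, beginning 110 and 73 bases before the start. The matches of ACTA2, at 121 and 71 bases, each carry 1 changed base. CALD1 had 1 match of the changed kind in 1 of its windows. The other windows of ACTA2 and CALD1 had none, nor had those of LMOD1, TPM1, TPM2 and CNN1. Of the 12 windows of contractile genes, 1 held a full match (8.333%) and 3 a full or changed one (25.0%). Of all 35116 windows, 1.293% held a full match and 8.127% a full or changed one. A match is a run of letters and was not tested for binding.

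TAGLN (chr11, 117199370 to 117207464, plus strand) was at 2503, 2498 and 2561 CPM in DOX- and 2530, 2461 and 2624 CPM in DOX+. The groups overlapped fully, with DOX+ libraries at both ends of the range. Its log2 fold change was 0.01 (95% interval -0.044 to 0.064, edgeR adjusted p = 0.891). TAGLN shares 2233 of its 6550 exonic bases in GENCODE 44 with PCSK7, a proprotein convertase gene on the opposite strand, and whether the authors counted by strand is not stated in the sources used here. ENSG00000280143, on the same strand, where counting by strand would not separate it, shares 2498 of the bases. It had no entry under its own identifier among the features counted. PCSK7 had 10944 to 12559 counts per library and a log2 fold change of 0.04 (edgeR adjusted p = 0.66).

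CNN1 (chr19, 11538767 to 11550323, plus strand), whose product calponin binds actin and restrains myosin, was at 203.6, 201.7 and 213.5 CPM in DOX- and 213.9, 201.4 and 223.4 CPM in DOX+. The lowest library of all was DOX+ replicate 2 and the highest DOX+ replicate 3. The log2 fold change was 0.05 (95% interval -0.049 to 0.14, edgeR adjusted p = 0.672). It was 0.01 without DOX+ replicate 3, 0.08 without DOX+ replicate 2 and 0.07 without DOX- replicate 3.

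CALD1 (chr7, 134744252 to 134970729, plus strand), whose product caldesmon ties actin to myosin and blocks their sliding, was at 1615, 1614 and 1573 CPM in DOX- and 1678, 1768 and 1657 CPM in DOX+. All DOX+ libraries were higher, and here replicate 2 was the highest of them. The log2 fold change was 0.09 (SE 0.027, 95% interval 0.029 to 0.15), with an edgeR adjusted p of 0.157, and of 0.104 to 0.411 with 1 library left out. With the GC trend removed it was 0.04. CALD1 makes a long smooth muscle form and a short form found in most cells, which gene counts add together.

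LMOD1 (chr1, 201896456 to 201946548, minus strand) was at 159.8, 160.0 and 158.4 CPM in DOX- and 165.6, 158.7 and 158.0 CPM in DOX+. The groups overlapped, with DOX+ replicate 1 above and replicate 3 just below the DOX- range. Its log2 fold change was 0.01 (95% interval -0.068 to 0.093, edgeR adjusted p = 0.918). ENSG00000223774, a noncoding gene on the opposite strand, shares 536 exonic bases with LMOD1 and had no entry under its own identifier among the features counted.

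The tropomyosins lie along the thin filament, and TPM1 and TPM2 each make muscle and non-muscle forms that the gene counts do not separate. TPM1 (chr15, 63042620 to 63071915, plus strand) was at 1613, 1635 and 1595 CPM in DOX- and 1660, 1678 and 1674 CPM in DOX+, with every DOX+ library higher. Its log2 fold change was 0.05 (95% interval 0.0020 to 0.097, edgeR adjusted p = 0.311), and 0.10 with the length trend removed. TPM2 (chr9, 35681992 to 35690056, minus strand) was at 1866, 1869 and 1922 CPM in DOX- and 1827, 1774 and 1832 CPM in DOX+, with every DOX+ library lower. Its log2 fold change was -0.06 (95% interval -0.11 to -0.0077, adjusted p = 0.265).

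The fitted changes of the pair had opposite signs, neither past the threshold, and the TPM2 value came close to 0 with the length trend (-0.0053) or the GC trend (-0.0072) removed. The ratio of TPM1 to TPM2 counts was 0.864, 0.875 and 0.83 in DOX- and 0.909, 0.946 and 0.914 in DOX+, a shift of 1.078-fold. Since TPM1 was higher and TPM2 lower in every DOX+ library, the ratio had to separate the groups, and it is given as a description. Their coding sequences were identical at 78.99% of 852 bases, with a longest shared run of 40 bases between canonical transcripts. TPM1-AS, an antisense gene that shares 2645 exonic bases with TPM1, had no entry under its own identifier among the features counted.

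MYL9 (chr20, 36541497 to 36551447, plus strand) was at 1288, 1267 and 1313 CPM in DOX- and 1255, 1218 and 1255 CPM in DOX+. Every DOX+ library was lower, and replicate 2 was the lowest. The log2 fold change was -0.05 (95% interval -0.11 to 0.0017, edgeR adjusted p = 0.35), and it turned to 0.0092 once the trend with GC content was removed. The ratio of CALD1 to MYL9 counts, 1.255, 1.273 and 1.198 in DOX- and 1.337, 1.452 and 1.32 in DOX+, differed by 1.102-fold and is likewise a description, as CALD1 was higher and MYL9 lower in every DOX+ library.

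MYH11 (chr16, 15703135 to 15857028, minus strand) had only 102, 65 and 106 counts in DOX- and 134, 128 and 115 in DOX+. All DOX+ libraries were higher, but the DOX- spread was wide, with replicate 2 well below the others. The log2 fold change of 0.42 (95% interval -0.019 to 0.85, edgeR adjusted p = 0.355) dropped to 0.22 without DOX- replicate 2. MYH11 shares 1063 exonic bases with NDE1, a dynein regulator gene on the opposite strand with 948 to 1203 counts. NDE1 had a log2 fold change of -0.25 (edgeR adjusted p = 0.0634), and its part in the MYH11 counts was not tested.

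**Figure D4:**
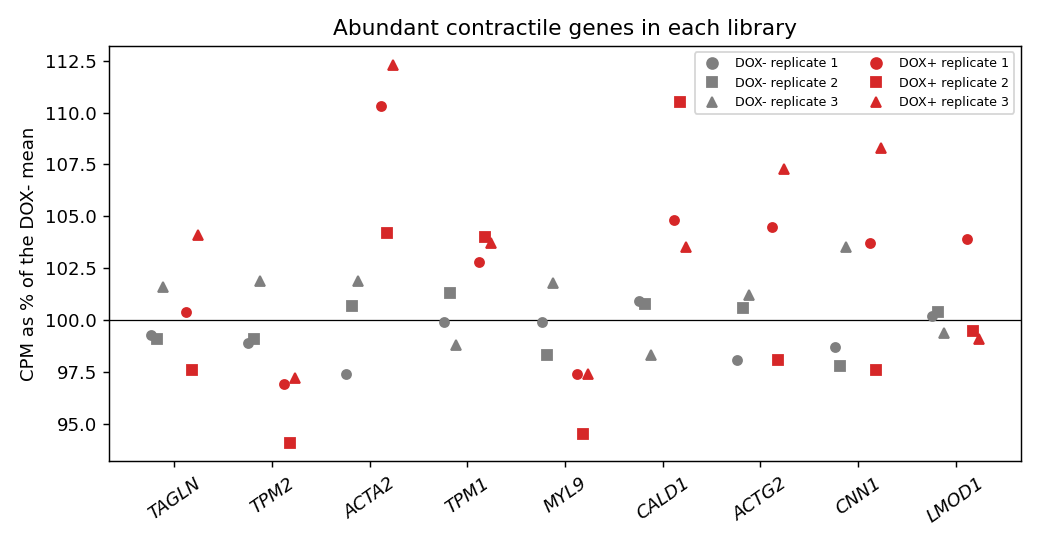
CPM of the 9 contractile genes other than MYH11 in each library, as a percentage of the gene's DOX- mean (line at 100), with a symbol for each replicate. ACTA2 is at 104.2% to 112.3% in DOX+, TAGLN stays between 97.6% and 104.1%, and DOX+ replicate 2 is often the lowest red symbol.

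DOX+ replicate 2 was the lowest DOX+ library for ACTA2, ACTG2, TAGLN, CNN1, MYL9 and TPM2 and the highest for CALD1 and TPM1, so its offset had no single direction over these genes. Whether its distance on the first principal component bears on these values was not tested.

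Other genes of the same machinery were grouped in lists, which are described by counts and medians, with no test of a list. For comparison with every list below, edgeR called 1.12% of all features tested, and 15.0% had an unadjusted p under 0.05. Among features with a mean log2 CPM over 7, these shares were 4.35% and 30.0%. DESeq2 called 3.52% of 6894 features higher and 3.54% lower, and limma-voom called 0.4% higher and 0.7% lower. Of the other actins and thin-filament genes, 16 of 20 were tested and 0 were called, with 6 above and 10 below 0 and a median log2 fold change of -0.02. At an unadjusted p under 0.05 there were 7, DESeq2 called ACTN4 and CNN3, and limma-voom called 0. The cytoplasmic actins ACTB and ACTG1 had log2 fold changes of -0.07 (edgeR adjusted p = 0.215) and -0.06 (0.286). ACTN4 and ACTN1, the alpha-actinins that cross-link actin, had the smallest p of the list, with log2 fold changes of -0.12 (0.17) and -0.08 (0.188).

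Of the myosin II and light-chain control genes, 21 of 22 were tested and 0 were called, with a median log2 fold change of 0.0096. At an unadjusted p under 0.05 there were 6, DESeq2 called MYLK alone, and limma-voom called 0. MYLK, the kinase that phosphorylates MYL9, was at 823, 810 and 824 CPM in DOX- and 880, 905 and 872 CPM in DOX+. The groups did not overlap, and the log2 fold change was 0.11 (edgeR adjusted p = 0.0696). The non-muscle heavy chains MYH9 and MYH10 had log2 fold changes of -0.08 (0.202) and 0.06 (0.514).

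All 13 genes of SRF and its cofactors were tested, and 0 were called, with a median log2 fold change of 0.01. At an unadjusted p under 0.05 there were 4, DESeq2 called MYOCD alone, and limma-voom called 0. SRF itself had a log2 fold change of 0.01 (edgeR adjusted p = 0.915), and the actin-sensing cofactors MRTFA and MRTFB had -0.09 (0.438) and -0.06 (0.808). MYOCD, encoding myocardin, the smooth muscle cofactor, was at 67.2, 67.2 and 74.8 CPM in DOX- and 78.9, 86.1 and 81.0 CPM in DOX+. Every DOX+ library was higher, and the log2 fold change of 0.23 (SE 0.053) did not pass the threshold (edgeR adjusted p = 0.0569). ELK3, a partner of SRF at growth-factor genes, had 0.12 (0.222).

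Among the other smooth muscle cytoskeleton and adhesion genes, 1 of 18 tested was called, in the higher direction, with 12 above and 6 below 0 and a median of 0.03. At an unadjusted p under 0.05 there were 4, LPP, NEXN and PALLD above and PDLIM7 below 0. DESeq2 called LPP, NEXN and PALLD, and limma-voom called LPP alone. It was LPP, a scaffold of focal adhesions, at 140, 137 and 136 CPM in DOX- and 162, 161 and 159 CPM in DOX+ (log2 fold change 0.22, edgeR adjusted p = 0.00736). DES, encoding the muscle intermediate filament desmin, had only 9 to 20 counts per library.

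**Figure D5:**
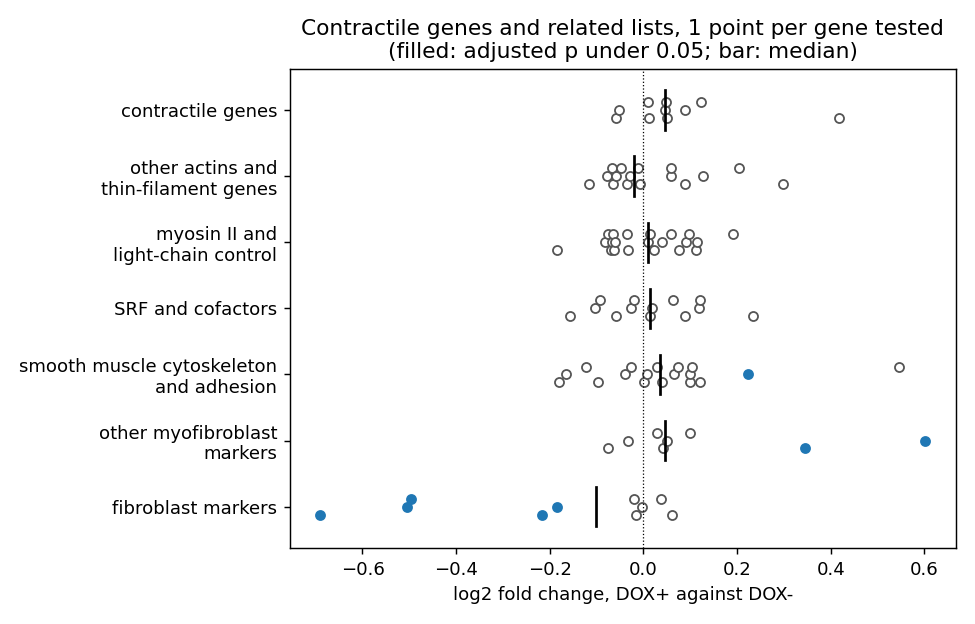
Log2 fold change, DOX+ against DOX-, of every tested gene in the contractile set and in 6 related lists, with a bar for each median and filled points where the adjusted p is under 0.05. The fibroblast markers have a median of -0.10 with 5 filled points, and the contractile genes have a median of 0.05 with none.

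Of the 8 myofibroblast markers outside the contractile apparatus, all were tested and edgeR called 2, both higher, beside 0.4% of all features called higher. LRRC15, a surface protein of activated fibroblasts, rose by a log2 fold change of 0.35 (edgeR adjusted p = 0.00277), and POSTN, encoding the matricellular protein periostin, by 0.60 (0.00595). The list held 6 genes above and 2 below 0, with a median of 0.05, and 4 had an unadjusted p under 0.05. Those below 0 were LOXL2, a lysyl oxidase family enzyme, at -0.08 (edgeR adjusted p = 0.278) and TIMP1, a metalloproteinase inhibitor, at -0.03 (0.713). The paper reports both as significantly lower by RT-qPCR, whereas neither was called here. DESeq2 called LRRC15 and CDH11, and limma-voom called LRRC15 and POSTN. DESeq2 gave an adjusted p to 6894 features only, and whether POSTN was among them was not examined. Of the 10 fibroblast markers, edgeR called 5, all lower, namely COL1A1, COL1A2, COL3A1, DCN and LUM, and limma-voom called the same 5. DESeq2 called 6, these and FN1, encoding fibronectin, which was higher in every DOX+ library (log2 fold change 0.06, edgeR adjusted p = 0.0775). In all, 2 of the markers, FN1 and THY1, were above 0 and 8 below. The ratio of ACTA2 to COL1A1 counts was 0.0808, 0.0866 and 0.0833 in DOX- and 0.146, 0.145 and 0.149 in DOX+, a shift of 1.758-fold, again a description, as ACTA2 was higher and COL1A1 lower in every DOX+ library. On the log2 scale this shift was 0.81, and the fall of COL1A1 itself was by 0.69.

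The 6 pericyte markers were all tested and 0 were called, with 2 at an unadjusted p under 0.05 and CSPG4 alone called by DESeq2. Their summed level was 1048 to 1122 CPM in DOX- and 1039 to 1102 CPM in DOX+, and CSPG4 and RGS5 had log2 fold changes of -0.19 (edgeR adjusted p = 0.0734) and 0.25 (0.208). Of 11 striated muscle markers 6 were at 0 in every library, MYH2, MYH6, MYH7, MYL1, TNNI1 and TNNT3, and the list summed to 8.16 to 9.90 CPM over all libraries. The epithelial markers KRT5, SFTPC and NKX2-1 were at 0 and the list summed to 15.3 to 18.2 CPM, nearly all of it KRT8. The endothelial markers PECAM1 and CDH5 were at 0, with a list sum under 1 CPM. Few genes of these lists passed the filter on low counts, 2 of 11 striated, 2 of 6 epithelial, 1 of 4 endothelial and 1 of 4 immune markers. Among those tested 0 were called by edgeR, DESeq2 or limma-voom, and 0 had an unadjusted p under 0.05. Which of these genes had an adjusted p from DESeq2 was not examined. The immune markers CD3E and LYZ were at 0, and CD68, a lysosomal protein also made by fibroblasts, gave nearly all of the 59.0 to 66.7 CPM of that list. Fibroblast markers summed to 56160 to 57750 CPM in DOX- and 47470 to 49070 CPM in DOX+, so markers of the labelled cell type were high in every library.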

How the data were processed

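RNA of IMR-90 fibroblasts was measured in 3 DOX- and 3 DOX+ libraries, grouped by sample title. The authors aligned reads to GRCh38 with HISAT2 and used StringTie (versions not given in the sources used here). The deposited counts are whole numbers without normalization, and the FPKM values deposited by the authors served to compare levels between genes and for 1 alternative test. Of the table, 17 stray lines without a gene were dropped, and unannotated loci held 0.938% to 0.996% of counts.

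edgeR 4.0.16 in R 4.3.3 was used: filterByExpr (minimum count 10), TMM and the quasi-likelihood test with group as the sole term. P-values were adjusted by Benjamini-Hochberg over 13991 features, with a threshold of 0.05. The standard error of a log2 fold change was its absolute value over the root of the F statistic. The code was tested on simulated data. DESeq2 1.42.0 and limma 3.58.1 served as alternatives.

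The contractile genes and the related lists were chosen with earlier results of these data known. Beyond the contractile genes and ZNF469, the text names called genes of each list (up to 4, or else those with the smallest p), some regulators fixed by name, genes that overlap a contractile gene, and the 3 features most correlated with ACTA2. CNN3, LUM, FN1, THY1, LOXL2, TIMP1, CDH11, NEXN, PALLD, PDLIM7, DES, SMTN and the markers at 0 were named after their values were seen. DOX- and DOX+ libraries of the same replicate number did not deviate together (correlations -0.0241, -0.0352 and 0.0363).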

Additional observations from a re-analysis of the deposited data

How the results depend on the processing

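All 10 contractile genes and ZNF469 were recomputed under up to 19 alternatives (scaling, filters, library left out, replicate block, length or GC trend removed, unannotated loci removed, ACTA2 and ACTG2 added together, DESeq2, limma-voom, and limma on log2(FPKM + 0.1), the last chosen after seeing the data). ZNF469 was called in each. ACTA2 passed the threshold at 0.14 (adjusted p = 0.0261) with library size scaling, 0.12 (0.0419) with the replicate block, 0.16 (0.0102) without DOX+ replicate 2, 0.17 (0.00325) with the length trend removed, 0.14 (0.00255) with the GC trend removed and 0.13 (0.00114) with DESeq2, and over all alternatives its adjusted p ran from 0.00114 to 0.264. Leaving out 1 library gave ACTA2 0.10 to 0.16. CALD1 passed with DESeq2 at 0.091 (0.0255). The direction turned for MYL9 with the GC trend removed (0.0092), for TAGLN without DOX+ replicate 3 (-0.014, the leave-one-out values reaching 0.033) and for LMOD1 without DOX+ replicate 1 (-0.0097, reaching 0.025), and the cause was not tested. Contractile genes called higher numbered 1 with library size scaling, the replicate block, either trend removed or without DOX+ replicate 2 and 2 with DESeq2, the leave-one-out range being 0 to 1; called lower, 0 throughout. Over all 13991 features, called higher numbered 56 and called lower 100. Library size scaling gave 88 and 77, and the replicate block 135 and 157. Removing the length trend gave 47 and 91, and removing the GC trend 127 and 162. With limma on FPKM there were 6 and 24, and at a threshold of 0.01 there were 19 and 54. With no filter, 127 and 163 of 18664 features were called, and with DESeq2 243 and 244 of 6894. With 1 library left out, 20 to 69 and 54 to 92 of 14229 to 14258 features were called. Without DOX+ replicate 2 there were 38 and 78 of 14234. Libraries of the same replicate number did not deviate together in the correlations given above. Yet more features were called with the replicate block, and why was not tested. With no call gained, removing the GC trend took CNN1 to 0.10, TAGLN to 0.05 and LMOD1 to 0.05, and removing the length trend took CNN1 and ACTG2 to 0.09. DESeq2 gave MYH11 no adjusted p.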

Other observations

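The features whose level followed ACTA2 most closely over the 6 libraries were searched among 5571 with a mean log2 CPM over 5. CALR, encoding the endoplasmic reticulum chaperone calreticulin, came first with a Pearson correlation of 0.9818 in log2 CPM (Spearman 1.0). SGCD, encoding the muscle membrane protein delta-sarcoglycan, had 0.9721 (0.9429), and MAN2B2, a lysosomal mannosidase, 0.9666 (0.9429). The libraries share the DOX- and DOX+ split, and the values describe likeness over 6 points only, without a p.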
